A study of Homo sapiens with 24 samples.

Results

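Epithelial junction and simple keratin genes are described here as 10 named genes: the claudins CLDN3, CLDN4 and CLDN6, the adhesion molecules CDH1 and EPCAM, the keratins KRT8, KRT18 and KRT19, and the transcription factors ELF3 and GRHL2. All 10 were among the 61544 genes listed for cerebral organoids, and 8 were among the 10221 genes listed for neural progenitor cells (NPCs), where KRT8 and GRHL2 were not analysed here. In GENCODE 29 (GRCh38) they lie on chromosome 7 (CLDN3 and CLDN4), 16 (CLDN6 and CDH1), 2 (EPCAM), 12 (KRT8 and KRT18), 17 (KRT19), 1 (ELF3) and 8 (GRHL2). RNA was sequenced from NPCs and day 30 cerebral organoids that were grown from the human embryonic stem cell line H9, an established line. The libraries labelled sh1 and sh4 carried either of 2 short hairpin RNAs against KDM2A, a histone demethylase (H3K36), and those labelled NC carried a scrambled hairpin. There were 5 libraries of each label in NPCs and 3 of each in organoids. In every group, NC included, hairpins were brought in by lentivirus at the stem cell stage, followed by puromycin selection at 1 µg/ml. It is not stated whether the libraries within a group are separate cultures, and p-values then cover just the spread among these libraries, part or all of which may be technical.

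Epithelial cells form sheets that are sealed near their tops by tight junctions, whose strands are built from claudins, and held together by E-cadherin (CDH1) at adherens junctions. Their inner scaffold pairs a type II keratin such as KRT8 with a type I keratin such as KRT18 or KRT19, and ELF3 and GRHL2 are transcription factors of epithelial cells. In the developing nervous system neural progenitors lose CDH1 as they gain N-cadherin, while choroid plexus, surface ectoderm and other non-neural epithelia keep epithelial junctions, and human pluripotent stem cells also carry CDH1, EPCAM and CLDN6.

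KDM2A itself was examined first. Levels are given as CPM, a library's counts scaled to a common total. In NPCs KDM2A averaged 92.0 ± 4.15 CPM in sh1 libraries and 95.1 ± 4.21 CPM in sh4 libraries, against 186 ± 15.3 CPM in NC libraries (SD, n = 5 each). Those are log2 differences of -1.02 and -0.97 (adjusted p = 5.13e-12 and 7.36e-12). All adjusted p-values come from the quasi-likelihood test of edgeR, adjusted over all tested genes by Benjamini and Hochberg's method. In organoids it averaged 110 ± 6.97 CPM in libraries labelled sh1 and 101 ± 4.89 CPM in libraries labelled sh4, against 100.5 ± 4.00 CPM in NC libraries (SD, n = 3 each). Neither difference passed (log2 0.14, 95% interval -0.02 to 0.29, and log2 0.01, 95% interval -0.14 to 0.16). Scaled by total count alone, the sh4 difference was -0.27 (adjusted p = 0.00871). Organoid groups are therefore named by their labels, and no direction given for them rests on a measured loss of KDM2A RNA.

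The listed genes summed to between 12733888 and 20185306 counts per NPC library and between 15899243 and 18853737 per organoid library. The NPC table holds a selected set of genes: of its 9860 tested genes, 99.3% passed an adjusted p of 0.05 for sh1 over NC, and no unadjusted p in that comparison exceeded 0.148. A p between sh1 and NC in NPCs is therefore a description of a set that already differs. For sh4 over NC, which shares the NC libraries, 88.0% passed, so a small p there is common to most listed genes as well. NPC levels in CPM are relative to the listed genes alone. In the following, a gene "rose" or "fell" if it passed an adjusted p of 0.05 with a log2 fold change of 1 or more in either direction, which is how the study's design text defines a changed gene. In bulk RNA, fewer cells of a type and less RNA per cell cannot be told apart.

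In NPCs the claudins CLDN3 and CLDN4 and the factor ELF3 fell with sh1 and fell with sh4, comparisons that share the NC libraries. CDH1 and EPCAM rose with sh1, and neither passed the call with sh4. The sh1 libraries lay apart from NC for 8 of 8 genes and the sh4 libraries for 4 of 8, as they did for 76.6% and 72.8% of all tested genes. With sh1, 2 of 8 rose and 3 fell, where 6.31% of all tested genes rose and 12.1% fell (18.4% called in all). With sh4, 0 of 8 rose and 3 fell, where 6.55% of all rose and 11.6% fell (18.1% called). Without NC replicate 1 the sh1 count was 3 in place of 5, since CLDN4 and EPCAM then missed the fold threshold. The median log2 fold change over the 8 genes was 0.07 with sh1 and -0.20 with sh4, beside 0.11 and 0.03 over all tested genes.

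CLDN3, a sealing claudin, measured 0.738, 1.21, 0.615, 0.922 and 0.719 CPM in the 5 sh1 NPC libraries. The sh4 libraries measured 0.660, 0.828, 0.621, 0.739 and 0.810 CPM, against 4.23, 3.66, 2.48, 3.04 and 2.66 CPM in NC. Every hairpin library lay below every NC library. CLDN3 fell by 1.93 on the log2 scale with sh1 (SE 0.194, adjusted p = 2.94e-08) and by 2.14 with sh4 (adjusted p = 8.37e-09). These levels rest on 11 to 22 counts per sh1 library, 12 to 16 per sh4 library and 34 to 81 per NC library.

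CLDN4, also on chromosome 7, measured 4.50, 3.90, 4.03, 4.20 and 5.24 CPM with sh1. It measured 5.44, 4.04, 3.88, 4.12 and 4.53 CPM with sh4, against 9.86, 8.80, 11.7, 8.34 and 6.42 CPM in NC. The hairpin groups overlapped each other and neither reached NC. CLDN4 fell by 1.03 with either hairpin (adjusted p = 2.00e-06 for sh1 and 1.97e-06 for sh4), close to the fold threshold: leaving out 1 library brought it below the threshold in 3 of 15 refits for sh1 and in 4 of 15 for sh4.

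ELF3, an ETS factor of differentiating epithelium, measured 1.81, 1.48, 1.12, 1.49 and 1.70 CPM with sh1. With sh4 it measured 0.715, 0.517, 1.14, 0.950 and 0.756 CPM, against 9.08, 7.57, 9.68, 8.56 and 6.63 CPM in NC. No hairpin library came near the NC range. The ELF3 levels rest on 20 to 33 counts per sh1 library, 10 to 22 per sh4 library and 127 to 174 per NC library. ELF3 fell by 2.45 with sh1 (adjusted p = 6.45e-11) and by 3.33 with sh4 (adjusted p = 2.26e-12), the widest NPC changes among the 8 genes. ELF3-AS1, an antisense gene beside ELF3, carried 9.38% to 31.8% of the ELF3 count in organoid libraries, and the strand setting of the counting was not stated in the sources.

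The promoters of the 3 genes that fell together in NPCs are shown with that of CLDN6, the claudin that did not. Each runs from 250 bases before to 50 bases after the RefSeq start (GRCh38.p14), on the gene's own strand; 5 of the 10 genes matched an entry. Capitals mark matches on either strand to an E-box with the letters CAGGTG, to a TATA box with the letters TATAAA and to a GC box with the letters GGGCGG.
CLDN3 (chr7:73770221-73770520, minus strand): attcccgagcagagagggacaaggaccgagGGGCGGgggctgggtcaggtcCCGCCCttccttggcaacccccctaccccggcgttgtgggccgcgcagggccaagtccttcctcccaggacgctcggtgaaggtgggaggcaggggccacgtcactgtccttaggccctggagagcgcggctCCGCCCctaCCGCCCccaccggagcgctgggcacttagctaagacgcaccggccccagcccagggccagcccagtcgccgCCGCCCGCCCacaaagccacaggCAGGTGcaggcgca
CLDN4 (chr7:73830746-73831045, plus strand): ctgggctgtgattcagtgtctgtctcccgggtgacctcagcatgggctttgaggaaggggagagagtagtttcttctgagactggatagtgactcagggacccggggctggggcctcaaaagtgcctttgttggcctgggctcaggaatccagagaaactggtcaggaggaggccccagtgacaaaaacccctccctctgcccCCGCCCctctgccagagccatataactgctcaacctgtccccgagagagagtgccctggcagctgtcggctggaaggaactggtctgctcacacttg
ELF3 (chr1:202010337-202010636, plus strand): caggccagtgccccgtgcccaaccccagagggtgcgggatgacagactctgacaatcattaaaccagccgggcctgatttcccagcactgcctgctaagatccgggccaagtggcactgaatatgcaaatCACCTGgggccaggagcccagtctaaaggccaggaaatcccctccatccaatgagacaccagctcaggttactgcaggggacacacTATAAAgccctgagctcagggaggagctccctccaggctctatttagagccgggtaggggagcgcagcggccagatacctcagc
CLDN6 (chr16:3018134-3018433, minus strand): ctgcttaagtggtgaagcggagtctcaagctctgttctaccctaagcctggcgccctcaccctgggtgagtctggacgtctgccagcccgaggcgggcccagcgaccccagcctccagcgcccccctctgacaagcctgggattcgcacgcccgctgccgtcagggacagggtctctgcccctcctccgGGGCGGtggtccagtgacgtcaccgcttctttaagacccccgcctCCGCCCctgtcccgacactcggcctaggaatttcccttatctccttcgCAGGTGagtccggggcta

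CLDN3 held 6 GC boxes, the last 2 overlapping, and 1 E-box. CLDN4 held 1 GC box, CLDN6 held 2 GC boxes and 1 E-box, and ELF3 held 1 E-box, 120 bases before the start, and 1 TATA box, 34 bases before it. Over 35116 promoters of the same length, 20.6% held an E-box, 11.5% a TATA box and 45.0% a GC box. AACCGGTT, a site of Grainyhead factors, was in 0.134% of all promoters and in none of these 4 windows. No motif was common to all of CLDN3, CLDN4 and ELF3, and these matches are descriptions of letters, not of binding.

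CLDN6, a claudin of embryonic epithelia, was placed on opposite sides of NC by the hairpins in NPCs. It measured 49.0, 43.3, 52.0, 49.1 and 51.9 CPM with sh1 and 83.1, 79.5, 79.6, 83.8 and 79.7 CPM with sh4, against 63.8, 63.3, 64.2, 62.1 and 57.3 CPM in NC. The 3 groups did not overlap. The log2 differences were -0.34 with sh1 (adjusted p = 8.44e-06) and 0.39 with sh4 (adjusted p = 1.39e-06), both under the fold threshold.

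CDH1, which encodes E-cadherin, was close to the limit of counting in NPCs, with 18 to 37 counts per sh1 library, 5 to 19 per sh4 library and 6 to 9 per NC library. Its levels were 1.34, 0.988, 1.23, 1.89 and 1.54 CPM with sh1 and 0.495, 0.776, 0.362, 1.00 and 0.270 CPM with sh4, against 0.469, 0.412, 0.437, 0.497 and 0.470 CPM in NC. All sh1 libraries exceeded all NC libraries, while sh4 libraries lay on both sides of NC. CDH1 rose by 1.61 on the log2 scale with sh1 (95% interval 1.01 to 2.20, adjusted p = 3.55e-05). With sh4 the difference of 0.34 had an interval of -0.35 to 1.04 and was not detectable at this depth (adjusted p = 0.329).

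EPCAM, a surface glycoprotein of epithelial and pluripotent cells, measured 3.56, 4.17, 3.13, 3.84 and 2.77 CPM with sh1. It measured 2.31, 2.54, 1.97, 2.11 and 2.43 CPM with sh4, against 1.15, 1.75, 1.97, 1.38 and 1.93 CPM in NC. The sh1 libraries stood above all others, and the lowest sh4 library met the highest NC library. EPCAM rose by 1.10 with sh1 (adjusted p = 3.96e-06), a call lost at 0.99 without NC replicate 1, and differed by 0.48 with sh4 (adjusted p = 0.0127).

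Of the keratins, KRT18 was the abundant one in NPCs, at 252 ± 12.97 CPM with sh1 and 217 ± 26.8 CPM with sh4, against 179.5 ± 8.98 CPM in NC (SD, n = 5 each). Its differences, 0.49 and 0.27 on the log2 scale, were both under the fold threshold (adjusted p = 2.36e-06 and 0.00119). KRT19, a type I keratin of simple epithelia, measured 2.35, 2.47, 2.91, 2.77 and 3.85 CPM with sh1 and 0.550, 1.14, 0.983, 1.21 and 0.756 CPM with sh4, against 1.41, 1.70, 1.75, 1.55 and 1.10 CPM in NC. The sh1 libraries lay above NC and the sh4 libraries overlapped its lower end. The log2 differences of KRT19 were 0.95 with sh1 (adjusted p = 0.000116) and -0.67 with sh4 (adjusted p = 0.00906), neither past the fold threshold.

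**Figure D1:**
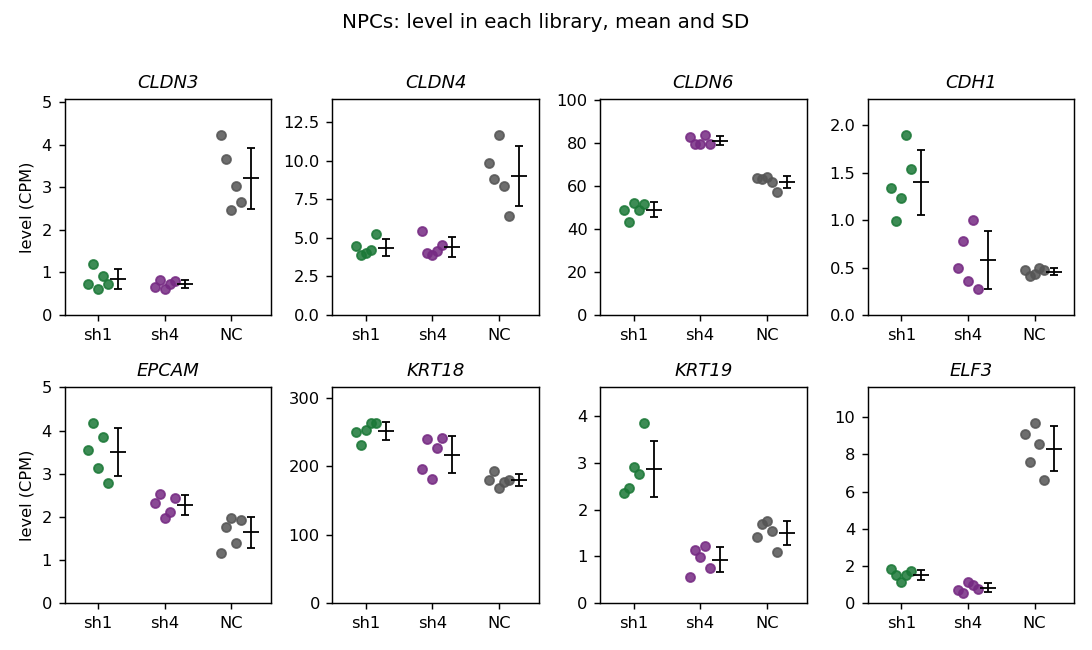
Level in CPM of the 8 listed genes in each NPC library, with points for libraries and a bar for the mean and SD (n = 5 per group). CLDN3, CLDN4 and ELF3 lie below NC in all sh1 and sh4 libraries, whereas CDH1 and EPCAM lie above NC in all sh1 libraries.

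Set against each other in NPCs, the hairpins differed past the call for 2 of 8 genes, both higher with sh1, where 2.18% of all tested genes were higher and 2.42% lower (4.60% called). Their libraries did not overlap for 3 of 8 genes, which held for 20.6% of all tested genes. CDH1 was higher with sh1 than with sh4 by 1.26 (adjusted p = 0.00123) and KRT19 by 1.62 (adjusted p = 3.32e-06). CLDN3 and CLDN4 differed by 0.20 (95% interval -0.31 to 0.72) and -0.01 (95% interval -0.33 to 0.31), and neither passed. CLDN6, at -0.73, EPCAM, at 0.62, ELF3, at 0.88, and KRT18, at 0.22, passed the adjusted p threshold but not the fold threshold.

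Organoids gave a different picture, in which the 2 hairpin labels parted. With the label sh4, 7 of 10 genes rose and none fell: CLDN4, EPCAM, all 3 keratins, ELF3 and GRHL2. With the label sh1, CLDN6 and GRHL2 fell and none rose. Over all tested genes 20.0% rose and 15.5% fell with sh4 (35.5% called), and 12.1% rose and 7.92% fell with sh1 (20.0% called). The median log2 fold change over the 10 genes was 1.31 with sh4 and -0.53 with sh1, beside -0.01 and 0.02 over all tested genes. GRHL2 was called in both comparisons, which share the NC libraries, in opposite directions.

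The libraries within each organoid group were not alike for these genes. Replicate 1 of sh4 was the highest of its group for 10 of 10 genes, and replicate 2 of sh1 was the lowest of its group for 9 of 10. Without sh4 replicate 1, 5 genes rose in place of 7, since EPCAM (log2 0.94) and KRT19 (log2 0.92) then missed the fold threshold. For 9 of 10 genes no sh4 library overlapped NC, which held for 73.1% of all tested genes, and for 6 of 10 no sh1 library did, which held for 62.1%.

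CLDN4 showed the widest rise, with 152, 98.4 and 82.8 CPM in libraries labelled sh4, against 19.4, 23.3 and 12.7 CPM in NC. Libraries labelled sh1 measured 24.9, 17.6 and 28.7 CPM and overlapped NC. CLDN4 rose by 2.59 with sh4 (SE 0.287, adjusted p = 3.21e-05) and differed by 0.36 with sh1 (95% interval -0.27 to 1.00, adjusted p = 0.322). CLDN3 measured 7.18, 4.89 and 7.07 CPM with sh1 and 15.3, 8.82 and 8.51 CPM with sh4, against 6.07, 8.32 and 7.57 CPM in NC. Its sh4 libraries stood just above NC, 2 of them by less than 1 CPM, and neither difference passed (log2 -0.20 with sh1 and 0.57 with sh4).

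CLDN6 was the exception among the claudins. It measured 19.7, 10.9 and 17.6 CPM with sh1 and 106, 84.5 and 70.2 CPM with sh4, against 96.5, 70.3 and 79.2 CPM in NC. The sh1 libraries lay far below both other groups, which overlapped. CLDN6 fell by 2.35 with sh1 (SE 0.227, adjusted p = 4.20e-05), and with sh4 the log2 difference was 0.08 (95% interval -0.39 to 0.55, adjusted p = 0.749), turning to -0.21 when libraries were scaled by total count alone.

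CDH1 measured 109, 64.9 and 145 CPM with sh1 and 399, 272 and 272 CPM with sh4, against 175, 168 and 137 CPM in NC. All sh4 libraries exceeded NC, and the sh1 group reached into it. The sh4 difference of 0.97 passed the adjusted p threshold (0.00763) and fell just short of the fold threshold, which it crossed in 4 of 9 refits that left out 1 library. The sh1 difference was -0.59 (95% interval -1.18 to -0.01, adjusted p = 0.0883).

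EPCAM measured 43.3, 27.2 and 52.4 CPM with sh1 and 229, 137 and 118 CPM with sh4, against 70.0, 66.6 and 63.4 CPM in NC. The 3 groups did not overlap. EPCAM rose by 1.27 with sh4 (adjusted p = 0.00190), and with sh1 the difference of -0.70 did not pass (adjusted p = 0.0561).

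All 3 keratins rose with sh4. KRT8, the type II partner, measured 242, 240 and 257 CPM with sh1 and 1009, 790 and 819 CPM with sh4, against 296, 305 and 294 CPM in NC. KRT18 measured 104, 94.1 and 109 CPM with sh1 and 496, 389 and 383 CPM with sh4, against 138, 140 and 136 CPM in NC. For both genes the 3 groups were separate, sh1 below NC and sh4 far above it. KRT8 rose by 1.55 (SE 0.0929, adjusted p = 9.72e-07) and KRT18 by 1.62 (SE 0.104, adjusted p = 1.40e-06) with sh4. With sh1 the differences were -0.28 and -0.43 (adjusted p = 0.0308 and 0.00707), under the fold threshold.

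KRT19 measured 115, 93.9 and 140 CPM with sh1 and 460, 362 and 418 CPM with sh4, against 215, 233 and 170 CPM in NC. Its groups were separate as well. The rise with sh4 was 1.00 (adjusted p = 0.000361), at the threshold itself, and was lost in 4 of 9 refits that left out 1 library; the sh1 difference was -0.83 (adjusted p = 0.00249).

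The count ratios of the paired keratins were compared as well. KRT8 counts were 2.33, 2.55 and 2.35 times those of KRT18 in sh1 libraries and 2.03, 2.03 and 2.14 times in sh4 libraries, against 2.15, 2.18 and 2.16 times in NC. The groups did not overlap, sh1 above and sh4 below NC, with an exact two-sided permutation p of 0.1 for each pair of groups, the smallest that 3 against 3 allows. Against KRT18 and KRT19 summed, KRT8 had mean ratios of 1.14 ± 0.126 with sh1 and 1.04 ± 0.0181 with sh4, against 0.872 ± 0.0772 in NC (SD, n = 3 each), and all libraries of both labels lay above NC. The exact two-sided permutation p was 0.1 for each label against NC and 0.3 for sh1 against sh4. The gene spans of KRT8 and KRT18, on opposite strands, overlap by 1084 bases on chromosome 12. With the strand setting of the counting not stated, how reads from there were assigned is not known. Processed copies took 0.56% to 2.45% of the KRT8 count (51 copies listed) and 0.188% to 1.80% of the KRT18 count (67 copies listed).

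Both transcription factors rose with sh4. ELF3 measured 7.24, 7.91 and 13.04 CPM with sh1 and 52.6, 41.6 and 36.3 CPM with sh4, against 13.2, 15.2 and 10.6 CPM in NC. GRHL2, which activates CDH1 and claudin genes in mouse epithelia, measured 3.51, 1.87 and 2.30 CPM with sh1 and 23.2, 21.6 and 18.8 CPM with sh4, against 11.9, 7.09 and 5.86 CPM in NC. For ELF3 the sh1 libraries overlapped NC, and for GRHL2 all 3 groups were separate. ELF3 rose by 1.74 with sh4 (adjusted p = 0.000109) and differed by -0.47 with sh1 (adjusted p = 0.134). GRHL2 rose by 1.35 with sh4 (adjusted p = 0.00150) and fell by 1.69 with sh1 (adjusted p = 0.00146).

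**Figure D2:**
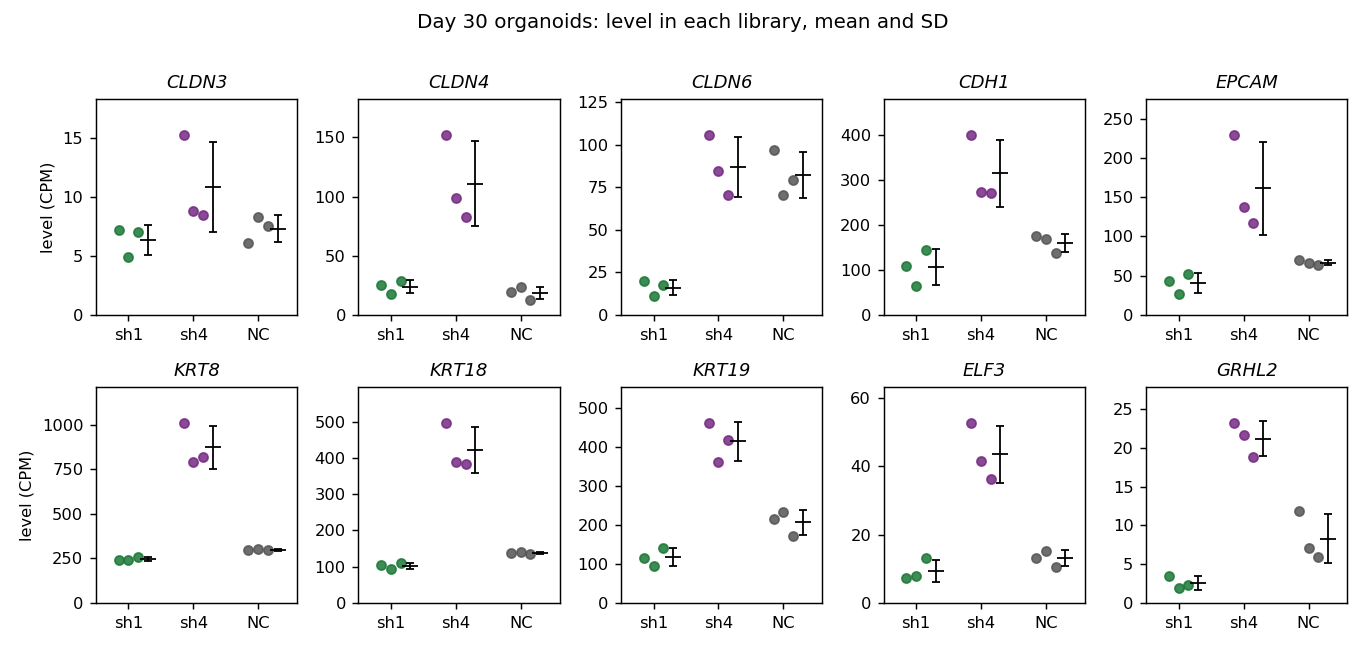
Level in CPM of the 10 genes in each day 30 organoid library, with points for libraries and a bar for the mean and SD (n = 3 per group). Libraries labelled sh4 stand above NC for all genes but CLDN6, where sh1 libraries stand alone at 10.9 to 19.7 CPM.

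Between the hairpin labels in organoids, 9 of 10 genes were lower with sh1 than with sh4 past the call, where 11.2% of all tested genes were lower and 7.83% higher (19.0% called). GRHL2 differed most, by -3.05 on the log2 scale (SE 0.302, adjusted p = 0.000117), followed by CLDN6 at -2.43, CLDN4 at -2.22 and ELF3 at -2.21. KRT18, EPCAM, KRT8, KRT19 and CDH1 lay between -2.05 and -1.57. CLDN3, at -0.77 (adjusted p = 0.0331), missed the fold threshold. For 10 of 10 genes the sh1 and sh4 libraries did not overlap, which held for 59.2% of all tested genes.

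**Figure D3:**
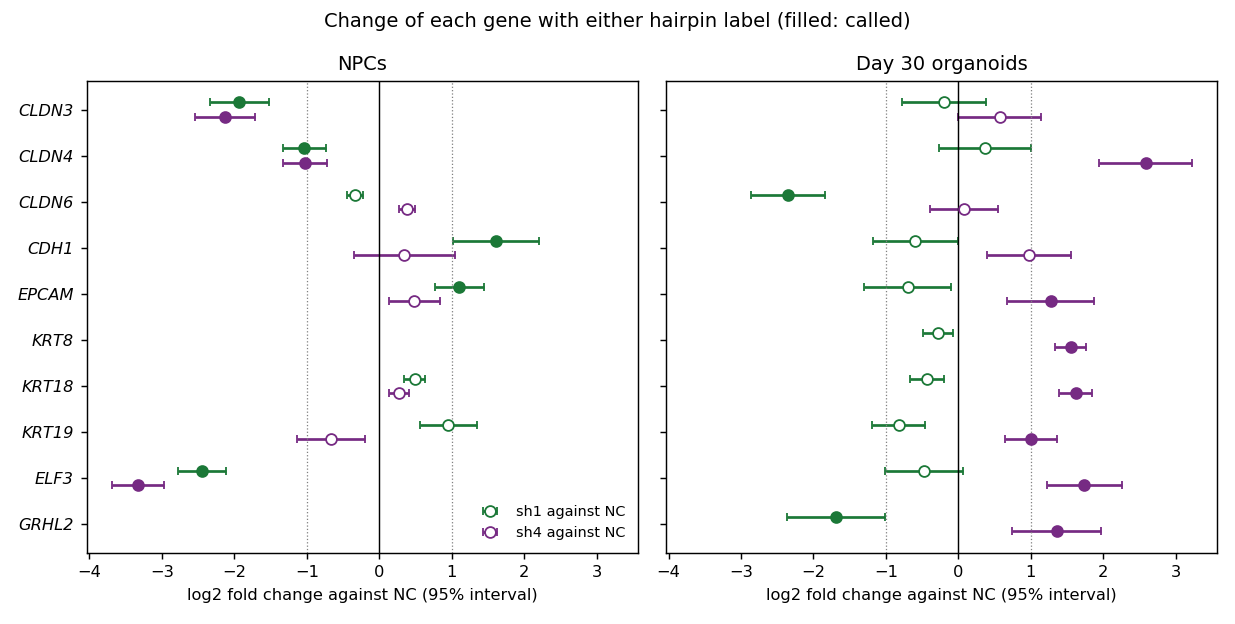
Log2 fold change of each gene with sh1 and sh4 against NC in NPCs and organoids, with 95% intervals; filled points passed the call and dotted lines mark a log2 fold change of 1 in size. CLDN3, CLDN4 and ELF3 lie left of 0 in NPCs with both hairpins, while CLDN4 and ELF3 lie right of 0 in organoids with sh4, at 2.59 and 1.74.

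The change in NPCs was then tested against the change in organoids in 1 model of all 6 groups, over 10020 genes tested in both tables. With sh4, 5 of 8 genes had a lower log2 fold change in NPCs than in organoids past the call and none a higher one, where 23.1% of all genes were lower and 16.6% higher in this sense (39.7% called). ELF3 differed by -5.07 (adjusted p = 1.89e-13), CLDN4 by -3.61 (adjusted p = 8.71e-11) and CLDN3 by -2.70 (adjusted p = 5.31e-08). KRT19 and KRT18 followed at -1.67 and -1.35. For CLDN6 and CDH1 the difference between systems did not pass with sh4 (0.30 and -0.63, adjusted p = 0.119 and 0.364), and EPCAM, at -0.80, missed the fold threshold (adjusted p = 0.0426).

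With sh1 the same difference split the genes. CDH1, CLDN6, EPCAM and KRT19 had the higher change in NPCs, by 2.23, 2.04, 1.84 and 1.82 on the log2 scale. ELF3, CLDN3 and CLDN4 had the lower change in NPCs, at -1.94, -1.70 and -1.36, and KRT18, at 0.95, missed the fold threshold. Over all genes 11.8% were higher and 18.7% lower by that measure (30.5% called). The selection of the NPC gene set, described above, touches this comparison directly.

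Levels of some of these genes also separated the 2 systems in their NC libraries. Scaled over genes listed in both tables, CDH1 averaged 246 ± 32.8 CPM in NC organoids and 0.465 ± 0.0333 CPM in NC NPCs. The organoid level was 529 times as high, a ratio that rests on 6 to 9 CDH1 counts per NC NPC library. KRT19 averaged 317 ± 51.7 CPM in NC organoids and 1.53 ± 0.270 CPM in NC NPCs, and EPCAM 102 ± 5.61 CPM in NC organoids and 1.67 ± 0.364 CPM in NC NPCs. CLDN3, CLDN4, ELF3 and CLDN6 differed less, at 3.4, 3.1, 2.4 and 2.0 times the NC NPC level in NC organoids. KRT18 was nearly level, at 212 ± 4.03 CPM in NC organoids and 183 ± 8.68 CPM in NC NPCs. The tables were deposited separately, so these are descriptions with no test.

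Per kilobase of exon, the order of levels in NC organoids was KRT19 (88.3 CPM per kb), CLDN6 (47.2), KRT8 (43.4), KRT18 (42.9), EPCAM (26.5) and CDH1 (25.9), with CLDN3, CLDN4, ELF3 and GRHL2 between 5.75 and 1.37. The length used merges all annotated exons of a gene, 6.88 kb for KRT8, 3.22 kb for KRT18 and 2.34 kb for KRT19. The order depends on that choice: in CPM, KRT8 (299) stood above KRT19 (206) in NC organoids. In organoids labelled sh4, KRT19 (177), KRT18 (131) and KRT8 (127) led, and EPCAM (64.0) and CDH1 (50.9) stood beside CLDN6 (49.9). The neighbours KRT8 and KRT18, and EPCAM and CDH1, differed by less than the larger of their SDs in NC and in sh4. So did CLDN6 and KRT8 in NC, and CLDN6 and CDH1 in sh4. In NC NPCs, KRT18 (55.8 CPM per kb) and CLDN6 (35.7) stood above the rest, which lay between 2.52 for CLDN3 and 0.0740 for CDH1.

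Other epithelial genes of the organoids were counted in 5 wider lists. Over all tested organoid genes, 12.1% rose and 7.92% fell with sh1, and 20.0% rose and 15.5% fell with sh4. Of 25 other tight junction genes tested, 4 rose and 6 fell with sh1, and 10 rose and 1 fell with sh4. CLDN1 averaged 9.42 ± 1.24 CPM with sh1 and 28.97 ± 2.66 CPM with sh4, against 3.25 ± 2.32 CPM in NC, a rise of 1.53 and 3.15 on the log2 scale. CLDN5, the claudin of endothelium, rose by 2.58 with sh1 and 2.29 with sh4, and CLDN11 by 1.67 and 1.46. Of 18 adherens junction and desmosome genes, 2 rose and 1 fell with sh1, shares near those of all genes, and 9 rose and 1 fell with sh4. The desmosomal cadherin DSC3 averaged 89.1 ± 20.0 CPM with sh1 and 138 ± 28.9 CPM with sh4, against 17.2 ± 4.11 CPM in NC, and the plaque protein PKP2 rose by 1.08 and 2.09.

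Of 9 other keratins and plakins, 6 rose with sh4 and none with sh1, where 1 fell; DSP, which rose by 1.08 with sh4, counts in this list and among the adherens junction and desmosome genes. Of 22 epithelial membrane and basement membrane genes, 14 rose and none fell with sh4, and 3 rose and 5 fell with sh1. LAMB3, a laminin chain, rose by 2.87 with sh1 and 5.35 with sh4, and the tetraspanin TSPAN1 by 3.45 and 5.49. Of 16 epithelial regulators, 8 rose and none fell with sh4, and 2 rose and 8 fell with sh1. The pioneer factor FOXA1 rose by 3.24 with sh1 and 4.19 with sh4, and PRR15L by 2.58 and 5.19. LAMB3, TSPAN1, FOXA1 and PRR15L are named as genes that rose with both labels. Among the 8 regulators that fell with sh1 are GRHL3 (-2.58), ESRP1 (-2.22) and GRHL1 (-1.38), named after their values were seen. With sh4 their log2 differences were 0.08, -0.36 and 0.03, none of them called. The median over the 16 regulators was -0.9 with sh1 and 0.98 with sh4. Genes of these lists were lower with sh1 than with sh4 past the call in 15 of 25, 6 of 18, 6 of 9, 19 of 22 and 13 of 16 cases. Of all tested organoid genes, 11.2% were lower and 7.83% higher in that comparison. Without sh4 replicate 1 the counts that rose with sh4 were 7, 8, 6, 14 and 7.

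Markers of other tissues moved with the same organoid labels, and their part in the results above was not tested. The organoid marker counts below stand beside shares over all tested genes. Those were 12.1% risen and 7.92% fallen with sh1, and 20.0% risen and 15.5% fallen with sh4. All 14 choroid plexus genes were detected; 13 rose with sh4 and 9 with sh1, and their summed level was 1033 to 2186 CPM with sh1 and 4582 to 9392 CPM with sh4, against 188 to 325 CPM in NC. TTR, the transthyretin of choroid plexus and liver, averaged 1184 ± 492.5 CPM with sh1 and 5087 ± 2444 CPM with sh4, against 31.2 ± 30.7 CPM in NC. Of 13 endoderm genes, 6 rose and 2 fell with sh1, 10 rose and 1 fell with sh4, and their sum was 3353 to 9749 CPM with sh1 and 18960 to 66240 CPM with sh4, against 105.5 to 505 CPM in NC. AFP, the fetal liver and yolk sac protein, named after its values were seen, made up 4569 ± 2304 CPM with sh1 and 28430 ± 19070 CPM with sh4, against 96.2 ± 124 CPM in NC. TTR counts in both of these lists, and FOXA1 in the endoderm and the epithelial regulator list. CLDN2 counts in the tight junction and choroid plexus lists, and KRT7 in the keratin and trophectoderm lists. KRT5 and KRT17 count in the keratin and surface ectoderm lists. CLDN2, KRT7, KRT5 and KRT17 all rose with sh4, so the lists are not separate counts. CDH2 and VIM count in the neural progenitor and mesenchymal switch lists. GATA6, a factor of endoderm and mesoderm, rose by 1.95 with sh1 and 1.61 with sh4.

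Of 15 trophectoderm and amnion genes, 11 rose and none fell with sh4, and 1 rose and 2 fell with sh1. Of the genes that fell with sh1 there were 4 without sh1 replicate 1, and 1 without sh1 replicate 2 or 3, sh4 replicate 2, or NC replicate 1 or 2; 2 rose without NC replicate 3. Their sum was 992 to 1095 CPM with sh1 and 2504 to 3110 CPM with sh4, against 329 to 454 CPM in NC, of which IGFBP3 made up 724 ± 80.3 CPM with sh1 and 1822 ± 263.5 CPM with sh4, against 113 ± 21.2 CPM in NC. Of 9 surface ectoderm genes tested, 3 fell with sh1, and 3 rose and 1 fell with sh4. The gene that fell with sh4 is DLX5, which fell with sh1 as well. The 11 listed genes summed to 86.3 to 103 CPM with sh1 and 77.3 to 130 CPM with sh4, against 115 to 144 CPM in NC. KRT14, a keratin of basal epidermis, was at 0 in all sh4 and NC libraries. KRT5 and KRT17, also of this list, rose with sh4 by 3.94 and 2.79 and were not called with sh1 (0.11 and -0.20). They averaged 3.23 and 4.255 CPM with sh4, against 0.20 and 0.61 CPM in NC. These keratins were named after their values were seen.

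All 11 pluripotent stem cell genes fell with sh1 and all 11 with sh4. Their sum was 167 to 178 CPM with sh1 and 169 to 211 CPM with sh4, against 1062 to 1619 CPM in NC, and POU5F1 had log2 fold changes of -8.91 with sh1 and -8.41 with sh4. POU5F1, a transcription factor of pluripotent cells, averaged 231 ± 67.0 CPM in the NC organoids, which also held CDH1, EPCAM and CLDN6. Of 13 neural progenitor genes, 8 fell with sh1, and 10 fell and 1 rose with sh4, with sums of 3074 to 3222 CPM with sh1 and 1554 to 1985 CPM with sh4, against 4012 to 4559 CPM in NC. PAX6 fell by 3.56 with sh1 and 4.41 with sh4. Of 14 genes of the switch to a mesenchymal state, 8 rose with each label and 2 fell with sh4; those that rose include SNAI2 (1.79 with sh1 and 1.85 with sh4), a repressor of CDH1, and CDH11 (1.64 and 1.59). Those that fell with sh4, named after their values were seen, are CDH2 and ZEB1. CDH2, the cadherin of neural and mesenchymal cells, was at the fold threshold (-1.01). Just 1 gene of the list fell with sh4 under RLE scaling, with DESeq2, without the filter or without sh4 replicate 1. Under library-size scaling 3 fell. ZEB1 is another repressor of CDH1. ZEB1 averaged 119 ± 7.84 CPM with sh1 and 45.6 ± 11.5 CPM with sh4, against 122 ± 5.07 CPM in NC, log2 differences of -0.03 with sh1 and -1.41 with sh4 (adjusted p = 3.24e-05 for sh4).

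**Figure D4:**
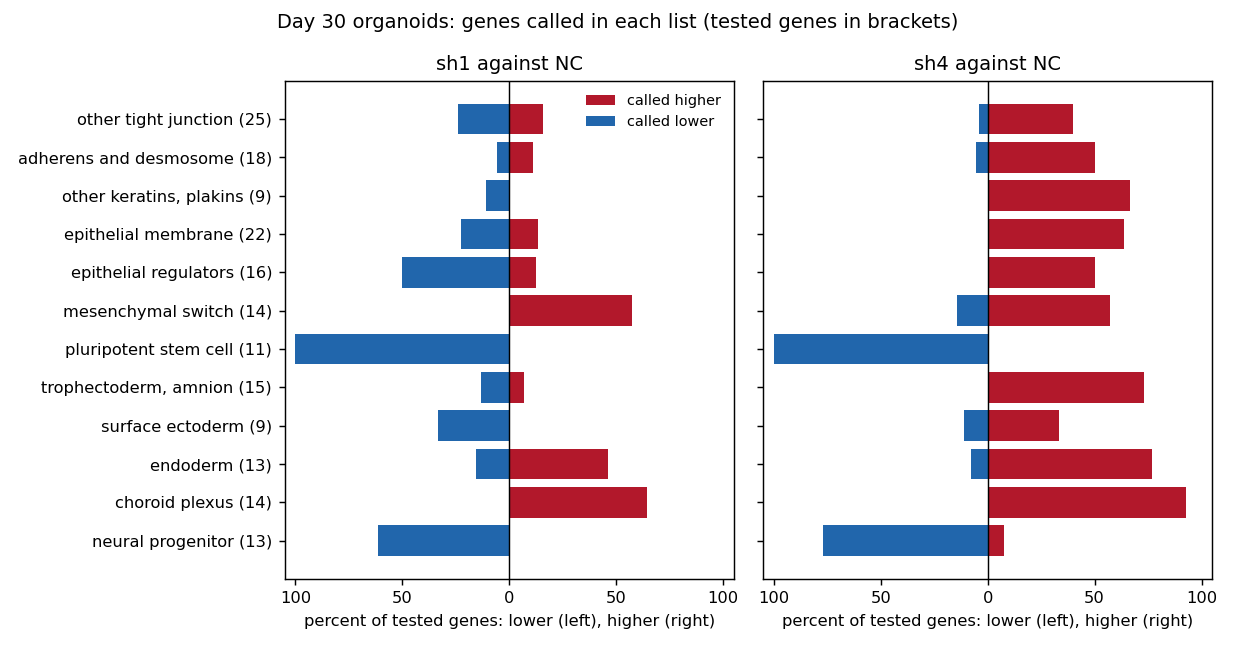
Percent of tested genes in each of 12 lists that were called lower (left) or higher (right) in organoids labelled sh1 and sh4 against NC, with the number tested in brackets. The 5 epithelial lists at the top extend to the right with sh4, whereas pluripotent stem cell genes were all lower with both labels.

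In NPCs the wider epithelial lists were split. Over all tested NPC genes 6.31% rose and 12.1% fell with sh1, and 6.55% rose and 11.6% fell with sh4. Of 17 other tight junction genes tested, 2 rose and 4 fell with each hairpin; CLDN1 fell by 1.22 with sh1 and 1.07 with sh4, CLDN2 by 1.74 and 2.51, and MARVELD3 by 1.40 and 2.18. Of 11 adherens junction and desmosome genes 1 rose and 2 fell with sh1 and 1 rose and 1 fell with sh4, and of 3 other keratins and plakins 1 rose and 2 fell with sh1 and 1 rose and 1 fell with sh4. The gene that rose is DSP in both lists. DSP, which ties keratins to desmosomes, averaged 59.0 ± 1.78 CPM with sh1 and 76.3 ± 5.12 CPM with sh4, against 16.6 ± 1.88 CPM in NC. PKP3 fell by 1.69 with sh1 and 2.38 with sh4, and PPL, a cornified envelope plakin, by 1.95 and 2.33. Of 9 epithelial regulators 4 fell with each hairpin and 1 rose with sh1, and KLF4 averaged 39.0 ± 7.75 CPM with sh1 and 46.4 ± 4.55 CPM with sh4, against 299 ± 97.1 CPM in NC. EHF, an ETS factor related to ELF3, fell by 3.22 with sh1 and 3.42 with sh4, and KLF5 by 1.79 and 1.46.

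Among 13 epithelial membrane genes in NPCs, 2 rose and 3 fell with sh1, and 2 rose and 1 fell with sh4. The integrin ITGB4 fell by 2.57 with sh1 and 2.05 with sh4, and the adaptor subunit AP1M2 rose by 2.37 and 1.40. Beside these, 5 of 10 pluripotent stem cell genes rose with sh1 and 7 with sh4, 1 fell with each, and the sums were 2046 to 2197 CPM with sh1 and 2000 to 2188 CPM with sh4, against 1258 to 1394 CPM in NC. NANOG averaged 7.30 ± 0.746 CPM with sh1 and 21.9 ± 4.13 CPM with sh4, against 0.975 ± 0.370 CPM in NC. The gene that fell is POU5F1, named here after its values were seen, at 100.2 ± 11.7 CPM with sh1 and 136 ± 12.7 CPM with sh4, against 356 ± 79.8 CPM in NC. Of 10 neural progenitor genes 6 rose with sh1 and 5 with sh4, among them SOX1 (1.36 and 1.95), and 1 fell with each. The genes that fell were not the same, and are named after their values were seen. NOTCH1 fell by 1.16 with sh1. PAX6 fell by 2.42 with sh4, to 3.17 ± 0.313 CPM against 17.0 ± 1.53 CPM in NC, and differed by 0.74 with sh1. The 11 neural progenitor genes listed summed to 2848 to 3077 CPM with sh1 and 3806 to 4190 CPM with sh4. Their sum was 3133 to 3340 CPM in NC. Of 10 choroid plexus genes 1 rose and 3 fell with sh1, and 3 rose and 2 fell with sh4, and of 7 trophectoderm and amnion genes 2 rose and 3 fell with sh1, and 1 rose and 2 fell with sh4. Of 4 surface ectoderm genes 2 rose with sh1 and 1 with sh4, of 2 endoderm genes 1 rose and 1 fell with each hairpin, and of 7 genes of the mesenchymal switch none was called with sh1 and 3 rose with sh4. The part of these markers in the NPC results was not tested.

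Likeness to CDH1 was measured as the root mean square difference between log2 CPM profiles centred on their own means. Candidates had a mean log2 CPM of at least 3, a floor not set for the 10 genes themselves. Over 9 organoid libraries and 11735 candidate genes outside the set, the nearest were CD9 (0.136), LYN (0.159), NEU1 (0.164), PDLIM1 (0.191) and CGN (0.195), the last encoding cingulin of tight junctions. EPCAM (0.193) and KRT19 (0.203) were as near, and CLDN6 (0.728) was the farthest of the set. Over 15 NPC libraries and 7872 candidates, the nearest were GPC3 (0.329), LHX2 (0.346), SP8 (0.389), HEPH (0.392) and COL2A1 (0.414), with KRT19 at 0.493 and EPCAM at 0.515. CDH1 had just 5 to 37 counts per NPC library, so counting noise enters this NPC order. Of the 7 other members with a value there, CLDN4 (1.07), CLDN3 (1.405) and ELF3 (1.76) were the farthest.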

How the data were processed

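Poly(A)-selected RNA was sequenced, and the authors deposited 1 table of estimated counts per gene and library for each system; 82.4% of NPC values and 91.0% of organoid values were whole. The submitters' processing notes name STAR, featureCounts and GRCh38.p13; their versions and settings, strand included, are not given in the sources used here. Counts were rounded, filtered in edgeR 4.0.16 (R 4.3.3) by filterByExpr with a minimum count of 10, scaled by TMM and put to the quasi-likelihood test, the 3 groups of a system fitted together, with Benjamini-Hochberg adjustment over all 9860 NPC or 19704 organoid genes. The fit was tested on simulated counts with known changes. CPM used TMM-scaled totals, and CPM per kb the merged length of all exons of a gene in GENCODE 29. Intervals are at the 95% level. Ratios of 2 genes were compared by exact permutation in scipy 1.17.1. Alternatives were DESeq2 1.42.0, RLE or library-size scaling, no filter, a replicate block, a fit of only the groups compared, and leaving out each library.

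The genes and lists were chosen with earlier results of these data known. From each of the 12 lists the text names up to 3 tested genes, by smallest adjusted p, called in 1 direction by sh1 and by sh4, plus KDM2A, the 10 genes themselves and the 5 genes most like CDH1 per system.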

Additional observations from a re-analysis of the deposited data

Results flagged for a closer look

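For 14 pairs of gene and hairpin the change in NPCs differed from the change in organoids by a test of the difference itself. The test was edgeR's quasi-likelihood test on all 6 groups, with a Benjamini-Hochberg adjusted p under 0.05. They are 8 of 8 genes with sh1 and 6 of 8 with sh4. The share of all genes under this p alone was not counted, so the number does not set these genes apart. Of all tested NPC genes, 99.3% already passed for sh1 over NC and 88.0% for sh4 over NC, and that selection touches this test. With the fold threshold added, 7 of 8 and 5 of 8 were called, beside 30.5% and 39.7% of all genes. With sh1 the NPC minus organoid log2 fold change was 2.23 for CDH1, 2.04 for CLDN6, 1.84 for EPCAM, 1.82 for KRT19 and 0.95 for KRT18, and it was -1.94 for ELF3, -1.70 for CLDN3 and -1.36 for CLDN4. With sh4 it was -5.07 for ELF3, -3.61 for CLDN4, -2.70 for CLDN3, -1.67 for KRT19, -1.35 for KRT18 and -0.80 for EPCAM. KDM2A itself had log2 fold changes of -1.02 with sh1 and -0.97 with sh4 in NPCs, against 0.14 and 0.01 in organoids; its part in these differences was not tested.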

How the results depend on the processing

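RLE scaling, DESeq2 and leaving out the filter changed no count of called genes among the 10. Scaling by library size alone gave 4 in place of 5 for sh1 in NPCs and 5 in place of 7 for sh4 in organoids, without EPCAM (0.97 and 0.98) and, in organoids, KRT19 (0.72). It also turned the organoid sh4 difference of CLDN6 to -0.21 and of KDM2A to -0.27 (adjusted p = 0.00871), lowered the median of all genes there to -0.28, against -0.01, and the share of calls that were higher to 43.3%, against 56.4%. That share was 57.3%, against 41.2%, for sh1 over sh4 in organoids, and 23.7%, against 34.3%, for sh1 in NPCs. Same-numbered deviations had r of -0.0995 to 0.393 in NPCs, where a sample matched its own number best in 12 of 30 comparisons, and -0.156 to 0.0352 in organoids, in 2 of 18; since not every pair exceeded 0.1 and the labels state no pairing, the numbers were not taken to pair samples, and the NPC values remain a hint. With a replicate block 6 genes rose with sh4 in organoids, KRT19 (0.99) being lost, and CLDN4 between hairpins in NPCs was 0.0019. A fit of only the groups compared also gave 6. Leaving out 1 library gave 3 to 6 called genes for sh1 and 2 to 3 for sh4 in NPCs, 2 to 3 between hairpins, 2 to 2 for sh1, 5 to 8 for sh4 and 9 to 9 between labels in organoids, and 7 to 8 and 5 to 5 for the difference between systems with sh1 and sh4. It reversed uncalled differences of CLDN4 between hairpins in NPCs (-0.084 to 0.079), and of CLDN6 (-0.081 to 0.21) and KDM2A (-0.022 to 0.050) with sh4 in organoids. List counts against NC of 2 or fewer genes moved most for the NPC endoderm genes that fell. There were 4 in place of 1 with either hairpin when the filter was left out. Larger counts moved too when 1 library was left out. With sh4 in organoids, 7 to 10 other tight junction, 7 to 11 endoderm and 9 to 12 trophectoderm and amnion genes rose. In the main fit these were 10, 10 and 11. The cause of these shifts was not tested. Low counts limit CDH1, CLDN3, KRT19 and, in hairpin libraries, ELF3 in NPCs, and 3 libraries per group limit the organoids.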
